A study of Mus musculus with 10 samples.

Results

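The miRNAs described here come from 22 hairpins, miR-379 to miR-381, that lie side by side in the imprinted Dlk1-Dio3 region of mouse chromosome 12. The members were chosen by hairpin name, both arms included, which gave 44 of the 1907 mature miRNA entries in the count table. They were measured in E14 mouse embryonic stem cells, a 129/Ola line that the labels trace to the blastocyst, grown with serum and LIF, the cytokine that keeps such cells undifferentiated, on gelatine-coated plates. Small RNA was sequenced in 5 groups of 2 libraries each. WT cells were E14 with no deletion named. Dgcr8_KO cells carried a knockout of Dgcr8, the RNA-binding partner of the nuclease Drosha, and Drosha_KO cells a knockout of Drosha itself. Dicer_KO cells lacked Dicer, the nuclease that removes the hairpin loop. Ago12_KO cells lacked both Ago1 and Ago2, members of the Argonaute family of proteins that hold mature miRNAs. The labels state neither how many clones stand behind a knockout nor whether the 2 libraries of a group were grown separately. The sample descriptions carry codes whose meaning is not given: P25 and P33 for the WT libraries, C1 and H11 for those of Dicer_KO, and a date-like prefix that differs between Dgcr8_KO and Ago12_KO. Whatever these prefixes mark cannot be told apart from the groups. The p-values below therefore reflect the spread between libraries alone, and that spread may be technical.

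In the canonical pathway, Drosha and Dgcr8 cut a hairpin out of a long primary transcript, Dicer cuts the hairpin to a short duplex, and a strand of that duplex, the 5p or the 3p arm, is kept by an Argonaute. The hairpins of this region are expressed from the maternal chromosome together with the long noncoding RNAs Meg3, Rian and Mirg, and they are best known from brain and placenta. In mouse pluripotent stem cell lines the region is known to be active in some lines and silent in others. Bases 2 to 8 of a mature miRNA, the seed, pair with target mRNAs.

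On GRCm38 the 22 hairpins span chr12:109709060-109726896, which is 17837 bases. The GENCODE annotation places 21 of them on the plus strand, and miR-299b lies on the minus strand opposite miR-299a. Of these hairpins, 18 overlapped no other annotated gene, and no gene other than miRNAs was annotated in the interval. The annotated Mirg gene begins 2867 bases beyond miR-381, at 109729764, so the hairpins lie upstream of the annotated Mirg and not inside its exons or introns.

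RefSeq mature sequences (GRCm38.p6) matched 43 of the 44 members, all but miR-376c-3p, and held 38 distinct seeds. The most abundant members and the members that went different ways from a close relative are printed below, 5′ to 3′, with the seed in capitals. The first set holds miR-300-3p and miR-381-3p, which share most of their letters but have different seeds.
miR-300-3p: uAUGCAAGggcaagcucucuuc
miR-381-3p: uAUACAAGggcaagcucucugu
Counted from 1 at the 5′ end of miR-300-3p, they differ by G4A, U21G and C22U. The miR-376 arms form the second set, in which miR-376b-5p and miR-376c-5p share a seed and miR-376a-3p and miR-376b-3p do not.
miR-376a-3p: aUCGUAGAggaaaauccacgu
miR-376b-3p: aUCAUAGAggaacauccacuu
miR-376b-5p: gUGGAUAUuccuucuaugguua
miR-376c-5p: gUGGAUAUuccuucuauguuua
From miR-376a-3p to miR-376b-3p the differences are G4A, A13C and G20U, and from miR-376b-5p to miR-376c-5p the only difference is G19U. The third set shows miR-495-3p and miR-543-3p, which differ by A6U, A7U, A9G and U10C.
miR-495-3p: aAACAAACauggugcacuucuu
miR-543-3p: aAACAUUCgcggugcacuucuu
The fourth set holds the arms of miR-299a and miR-299b, the hairpins encoded on opposite strands.
miR-299a-3p: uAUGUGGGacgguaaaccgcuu
miR-299b-3p: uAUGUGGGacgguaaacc
miR-299a-5p: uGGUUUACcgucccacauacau
miR-299b-5p: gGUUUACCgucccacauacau
Each miR-299b arm is contained in the same arm of miR-299a. A read that lies within the shared letters could therefore come from either, and the split between their entries is uncertain. The last set holds miR-411-5p, the most abundant member in WT, and related 3p arms from the proximal end of the cluster.
miR-411-5p: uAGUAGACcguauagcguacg
miR-379-3p: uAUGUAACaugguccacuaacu
miR-411-3p: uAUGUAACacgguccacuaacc
miR-380-3p: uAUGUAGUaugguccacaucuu
miR-758-3p: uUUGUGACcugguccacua
Here miR-379-3p and miR-411-3p share a seed and differ by U10C and U22C. The other members with a shared seed were miR-379-5p with miR-1193-5p and miR-1197-5p with miR-758-5p.

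Library totals ran from 37476 counts in Dicer_KO replicate 2 to 2357868 in WT replicate 1, and the floor of 3 counts ran from 1.27 to 80.1 CPM (counts scaled to a common library total of 1000000). The embryonic stem cell miRNAs of the miR-290 to miR-295 and miR-302 to miR-367 clusters took 18.5 to 19.8% of the WT libraries, 16.0 to 16.4% in Dgcr8_KO, 20.5 to 21.05% in Drosha_KO, 3.25 to 3.63% in Dicer_KO and 11.54 to 12.48% in Ago12_KO. Nearly all of these marker counts came from miR-290 to miR-295: 435146 of 435273 in WT replicate 1 and all 8316 in Drosha_KO replicate 1. The sums therefore say little of miR-302 to miR-367. Of the 28 marker entries, 6 were at 0 in WT, 7 for Ago12_KO, 10 for Dgcr8_KO, 12 for Dicer_KO and 13 for Drosha_KO. In Dicer_KO, 46.9 to 48.5% of the counts lay in 5 entries (miR-1983, miR-3963, miR-6236, miR-6239 and miR-6240). These entries are reported to overlap tRNA or rRNA or lead the Dicer_KO libraries. The members' shares in Dicer_KO are shares of a total that includes these entries. Drosha_KO replicate 1 stood apart. It held 0 counts of the members among its 39511, which allows a share of up to 0.00759%, and only 6 counts of the 4 imprinted miRNA lists together, against 4392 in replicate 2, whose total was 40306. Counts of calls in Drosha_KO, and fold changes of the members described with counts there, are therefore given without replicate 1. Most are given with it too. Bounds for members with no count, and the median, use both libraries. Values are shares of the counted miRNAs, so amounts per cell are not known, and fewer cells expressing a miRNA and less of it per cell cannot be told apart.

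In WT, a few dominant arms held most of the cluster's counts. The 44 members took 3.56% of replicate 1 and 3.46% of replicate 2, 3.51% ± 0.0713 (SD, n = 2). In WT, 41 of the 44 had a count, and 5 had a mean of at least 1000 CPM, 18 lay between 100 and 1000 CPM and 18 had a count but lay under 100 CPM. miR-411-5p led with 35476 and 27946 counts, 42.3 and 41.6% of all member counts. miR-300-3p followed with 14.4 and 15.1%, miR-381-3p with 12.5 and 11.4% and miR-758-3p with 8.55 and 9.48%. Together miR-411-5p, miR-300-3p and miR-381-3p made up 69.2 and 68.0% of the member counts. The 3p arm held most of the counts in both WT libraries at 16 of 21 hairpins, and the 5p arm at 4, so the dominance of miR-411-5p was an exception to the usual arm. The entries for miR-654, miR-1197-5p and, in replicate 1, miR-758-5p had no count in WT.

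**Figure D1:**
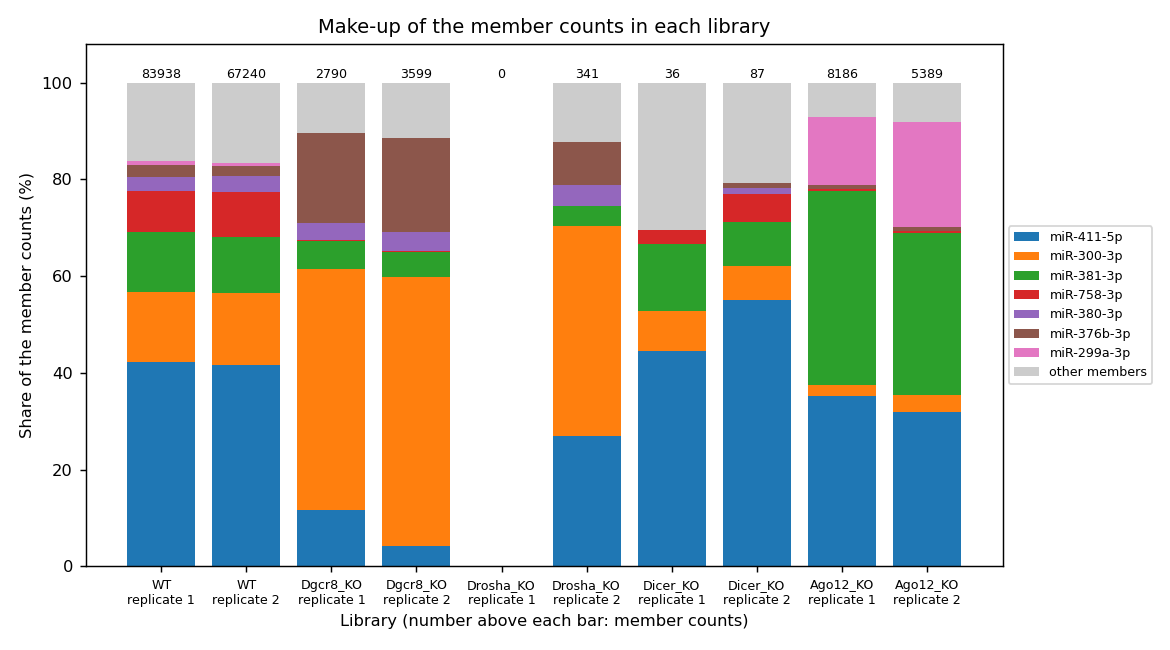
Make-up of the member counts in each library (y axis, percent of the library's member counts; x axis, libraries; the number above a bar is its member counts). miR-411-5p (blue) fills 42.3 and 41.6% of the WT bars, miR-300-3p (orange) 49.8 and 55.5% of the Dgcr8_KO bars, and miR-381-3p (green) 40.2 and 33.4% of the Ago12_KO bars; Drosha_KO replicate 1 has no bar because its member count is 0.

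Across the knockouts the summed share was lower than in WT in every library. In Dgcr8_KO the members took 0.964 and 0.881%, 0.922% ± 0.0586 (SD, n = 2), and in Ago12_KO 2.34 and 2.35%, 2.35% ± 0.00399 (SD, n = 2). In Drosha_KO the shares were 0 and 0.846%, and in Dicer_KO 0.0796 and 0.232%, with exact 95% binomial (Clopper-Pearson) intervals of 0.0558 to 0.110% and 0.186 to 0.286% that cover counting error only. No mutant library reached the lower WT library. With 2 libraries against 2, an exact two-sided permutation test cannot go below p = 0.333, so these shares are given without a test.

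In Dgcr8_KO the members and the Rtl1-antisense miRNAs went opposite ways in summed share. The Rtl1-antisense miRNAs (among them miR-127 and miR-434, opposite the Rtl1 coding gene) took more of the library there, 19.8 to 20.3% against 10.3% in both WT libraries, while the members, the miRNAs of Meg3 and Rian and the second part of the Mirg cluster all took less. The members' share of the counts of the 4 imprinted lists was 18.7 and 18.2% in WT and 4.34 and 3.89% in Dgcr8_KO, and the groups did not overlap. It was 7.76% in Drosha_KO replicate 2, 14.01 and 19.64% in Dicer_KO, and 29.0 and 22.5% in Ago12_KO. In Ago12_KO both libraries lay above WT by this measure, and the Rtl1-antisense share was 3.83 to 4.10% of the library. Which of the lists accounts for such a ratio cannot be read from it.

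**Figure D2:**
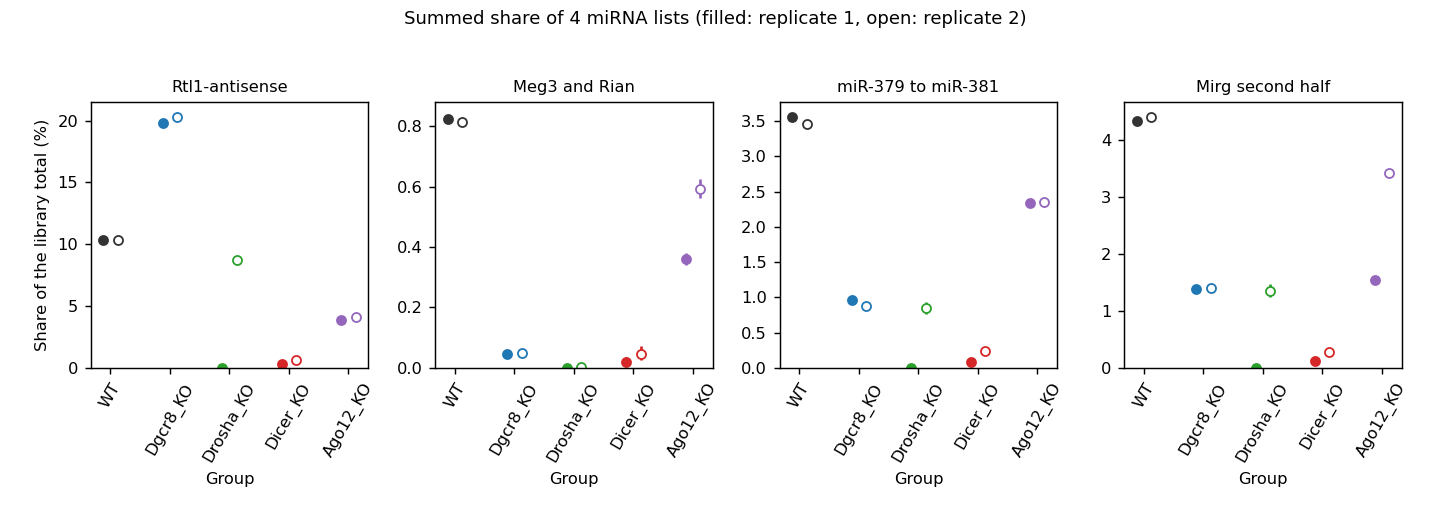
Summed share of the library total (y axes, percent, a separate scale in each panel) of the members and of 3 neighbouring miRNA lists in the 5 groups (x axes; filled points, replicate 1; open points, replicate 2; bars, exact 95% binomial intervals). The members' panel falls from 3.56 and 3.46% in WT to 0.964 and 0.881% in Dgcr8_KO, while the Rtl1-antisense panel stands at 19.8 to 20.3% in Dgcr8_KO against 10.3% in WT.

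For tests across entries, 481 of the 1907 had enough counts, and 28 of the 44 members were among them. Of these, 26 passed through both WT libraries, while miR-299b-3p and miR-376b-5p passed only through a mutant. Their levels are therefore given as a description. Both entries stay among the 28 in the counts and medians below, and nothing is read from their calls. In turn, miR-1197-3p, miR-1193-3p, miR-329-5p, miR-329-3p and miR-376c-3p reached the minimum in the WT libraries alone. They were kept through the group where they are high, so their calls lower are a description too. They also stay in the counts and medians. The 16 that were not tested had WT means of at most 18.3 CPM, the level of miR-667-5p, and among them miR-494-5p had 17.4 and 17.0 CPM in WT and 54.4 and 34.9 CPM in Ago12_KO. The tests used edgeR's quasi-likelihood method on counts scaled by library totals, with Benjamini-Hochberg adjustment over all 481 entries and a threshold of 0.05. The 4 comparisons with WT share the WT libraries. Whether the libraries of compared groups overlapped is given as a description, without the share over all entries, and adds no support to a call.

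In Dgcr8_KO most of the tested members were lower than in WT. Of the 28, 23 were called lower, against 41% of all tested entries, and 1 was called higher, against 32.4%. The latter was miR-376b-5p, which passed the filter only through mutant libraries, so nothing is read from that call. The median fitted log2 fold change was -3.67 over the 28 and -0.41 over all 481 entries. With entries without a count at their bounds these were -3.67 and -0.34. miR-411-5p had 15046 and 14376 CPM in WT and 1133 and 374 CPM in Dgcr8_KO. Both mutant libraries lay far below WT and apart from each other, and the log2 fold change was -4.29 ± 1.17 (SE; edgeR adjusted p = 0.00669). Without Dgcr8_KO replicate 2 the edgeR adjusted p was 0.0703, and over all alternatives the edgeR or DESeq2 adjusted p ran from 3.03e-24 to that value.

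miR-758-3p fell further, from 3044 and 3280 CPM in WT to 27.6 and 12.2 CPM, that is 8 and 5 counts. Its log2 fold change was -7.36 ± 0.61 (SE; edgeR adjusted p = 5.27e-06), and the groups did not overlap. miR-381-3p fell from 4438 and 3936 CPM to 549 and 465 CPM, a log2 fold change of -3.05 ± 0.62 (SE; edgeR adjusted p = 0.00112). miR-323-3p, among the 6 most abundant members in WT, fell from 799.9 and 919 CPM to 100.2 and 90.5 CPM (-3.17 ± 0.38 SE on the log2 scale, edgeR adjusted p = 3.09e-05).

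miR-666-3p, miR-1197-3p and miR-1193-3p had no count in either Dgcr8_KO library. Set against a floor of 3 counts over the group, they were at least 59.8-fold, 30.1-fold and 19.0-fold lower than in WT. All 3 were called by edgeR (adjusted p = 3.3e-05, 0.000215 and 9.75e-05), and miR-1197-3p was not called by DESeq2 (adjusted p = 0.0785 with column totals and 0.12 with its own size factors). As miR-1197-3p and miR-1193-3p passed the filter through WT libraries alone, their calls are a description. miR-666-5p had 1 count against 2694 in WT, a ratio of 437 with a counting interval of 78.4 to 17277. miR-299a-3p had 2 counts against 1156, a ratio of 93.8 with an interval of 25.9 to 776.

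Among the members called lower, the smallest changes were those of miR-543-3p, miR-380-3p and miR-376a-5p. miR-380-3p had 1012 and 1124 CPM in WT and 338 and 349.9 CPM in Dgcr8_KO, a log2 fold change of -1.63 ± 0.53 (SE; edgeR adjusted p = 0.0159). miR-543-3p had 447 and 500.0 CPM in WT and 187 and 159 CPM in Dgcr8_KO, a log2 fold change of -1.46 ± 0.45 (SE; edgeR adjusted p = 0.0122). Neither pair of groups overlapped, but each of these calls was lost when any 1 of the 4 WT and Dgcr8_KO libraries was left out, with edgeR adjusted p from 0.0549 to 0.104 for miR-543-3p and from 0.0595 to 0.091 for miR-380-3p, and DESeq2 did not call miR-380-3p (0.123 and 0.11). miR-376a-5p, at 121 and 122 CPM in WT and 13.8 and 34.3 CPM in Dgcr8_KO, was called lower under all 19 alternatives (-2.27 ± 0.49 SE on the log2 scale, edgeR adjusted p = 0.00205).

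miR-300-3p, miR-376b-3p, miR-495-3p and miR-299b-3p were not called by edgeR. miR-299b-3p had 1 count against 8 in WT, a ratio of 1.30 with a counting interval of 0.174 to 57.6. miR-300-3p had 5135 and 5210 CPM in WT and 4797 and 4892 CPM in Dgcr8_KO, close levels that did not overlap. Its log2 fold change was -0.09 ± 0.99 (SE; edgeR adjusted p = 0.937). That SE takes its spread from all groups, among them Drosha_KO with 0 and 3672 CPM. It therefore does not measure the spread of WT and Dgcr8_KO alone. With only the compared groups in the fit miR-300-3p was not called either (edgeR adjusted p = 0.438), and with no scaling it was called lower (edgeR adjusted p = 0.0486). The fit with no scaling does not correct for library depth. Its median over all entries in Dgcr8_KO was -3.02, against -0.41 with library totals. Values with no scaling here and below carry this shift, so their sign is no evidence on direction. The share of miR-300-3p in the member counts was 49.8 and 55.5% in Dgcr8_KO, and with miR-376b-3p it made up 68.4 and 74.9% there, against 16.8 and 17.1% in WT.

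miR-376b-3p, which is known for A-to-I editing of its family in brain, had 844 and 704 CPM in WT and 1789 and 1708 CPM in Dgcr8_KO. Both Dgcr8_KO libraries lay above both WT libraries, with a log2 fold change of 1.18 ± 0.66 (SE; edgeR adjusted p = 0.128). The value passed the threshold without Drosha_KO replicate 1 (edgeR adjusted p = 0.00132) and without Drosha_KO replicate 2 (0.00134), although neither library belongs to the groups compared: the fit takes its estimate of the spread from all groups. Over the alternatives its edgeR or DESeq2 adjusted p ran from 0.000141, with only the compared groups in the fit, to 0.402, and with no scaling for library size the log2 fold change was -1.47.

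miR-376b-5p, from the same hairpin, had 32.7 and 32.4 CPM in WT and 121 and 119.9 CPM in Dgcr8_KO, from 35 and 49 counts. The replicates lay close together and the groups apart, with a fitted log2 fold change of 1.88, which was -0.74 with no scaling. It is given without a test because only mutant libraries brought this entry past the filter. The 5p share of the miR-376b hairpin, which does not depend on the library total, was 3.72 and 4.40% in WT and 6.33 and 6.56% in Dgcr8_KO. On log2 of the 5p over 3p count ratio this was a rise of 0.71 ± 0.14 (SE; limma adjusted p = 0.0156, n = 2 libraries a group), where 37.5% of the 40 hairpins tested were called in either direction and miR-376b was the only member hairpin tested. It was lost without Dgcr8_KO replicate 2 (limma adjusted p = 0.0571), without WT replicate 1 (0.0915) and without WT replicate 2 (0.0519), and over the alternatives limma adjusted p ran from 0.0129 to 0.0915.

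miR-495-3p had 213.8 and 235.6 CPM in WT and 369.6 and 381.7 CPM in Dgcr8_KO, higher in both mutant libraries but not called (0.74 ± 0.48 SE on the log2 scale, edgeR adjusted p = 0.182, range 0.00399 to 0.44 over the alternatives). With no scaling its log2 fold change was -1.87. It passed the threshold without Drosha_KO replicate 1 (edgeR adjusted p = 0.049).

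**Figure D3:**
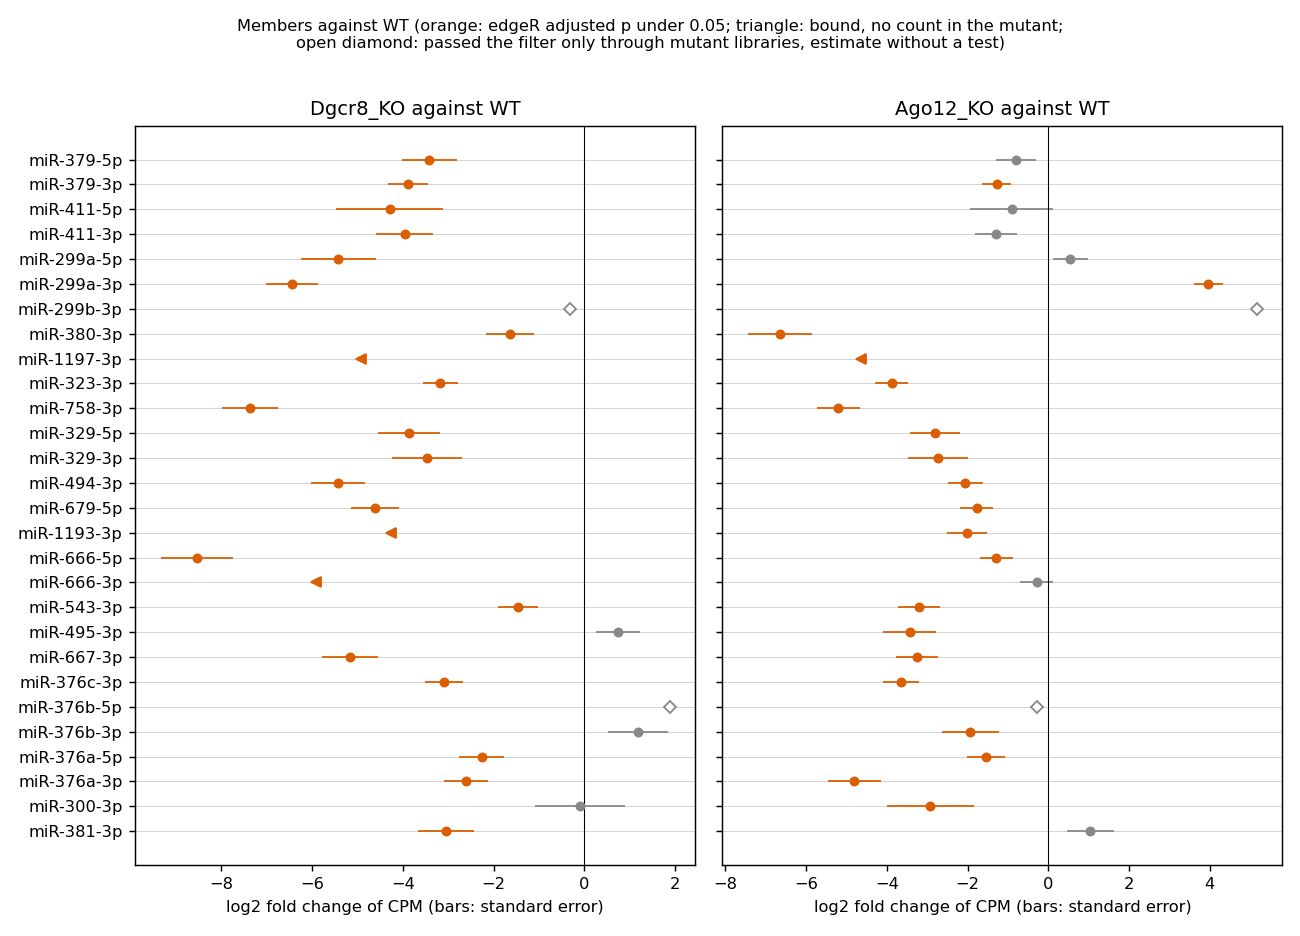
Log2 fold change of CPM against WT (x axes; points, edgeR estimate; bars, standard error) of the 28 tested members in the order of their hairpins along chromosome 12 (y axis), in Dgcr8_KO (left) and Ago12_KO (right). Orange marks edgeR adjusted p under 0.05 and triangles mark members with no count in the mutant, placed at the bound from 3 counts; open diamonds mark miR-299b-3p and miR-376b-5p, which passed the filter only through mutant libraries and are shown without a test. In Ago12_KO miR-299a-3p (3.97) lies right of 0 in orange.

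Some pairs of closely related sequence had other count ratios in the mutants than in WT. Such a ratio is taken within a library, so the library total has no bearing on it. In WT there were 1.16 and 1.32 counts of miR-300-3p for each count of miR-381-3p. In Dgcr8_KO the ratio was 8.74 (exact 95% interval 7.41 to 10.4) and 10.5 (9.06 to 12.3), and in Drosha_KO replicate 2 it was 10.6 (6.10 to 19.8). In Ago12_KO it was 0.0590 (0.0508 to 0.0682) and 0.104 (0.0890 to 0.121), and in Dicer_KO 0.6 (0.0932 to 3.08) and 0.750 (0.214 to 2.46) from 22 counts in all. Dgcr8_KO and Drosha_KO replicate 2 therefore lay above WT and Ago12_KO below it, while the Dicer_KO intervals include WT.

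For each count of miR-376b-3p there were 0.178 and 0.213 counts of miR-376a-3p in WT, and 0.0135 and 0.0143 in Dgcr8_KO. In Ago12_KO the same ratio was 0.0274 and 0.0222, but from 2 and 1 counts of miR-376a-3p. The ratio of miR-495-3p to miR-543-3p was 0.478 and 0.471 in WT, 1.98 and 2.40 in Dgcr8_KO, 1.80 in Drosha_KO replicate 2 (0.542 to 6.84), and 0.533 and 0.286 in Ago12_KO. miR-379-3p and miR-411-3p, which share a seed, kept ratios of 0.667 and 1.14 in Dgcr8_KO and 1.01 and 0.704 in Ago12_KO against 0.881 and 0.841 in WT, so both groups overlapped WT. Drosha_KO replicate 2 had 1 count of miR-379-3p and 13 of miR-411-3p (ratio 0.0769, interval 0.00181 to 0.512). miR-758-3p differs from both at 3 to 4 of 19 compared bases. For each of its counts there were 0.174 and 0.147 counts of miR-379-3p in WT, 1.0 and 3.2 in Dgcr8_KO and 4.53 and 1.36 in Ago12_KO. The ratio of miR-411-3p to miR-758-3p was 0.197 and 0.175 in WT, 1.5 and 2.8 in Dgcr8_KO, and 4.47 and 1.93 in Ago12_KO. Both ratios were above WT in every Dgcr8_KO and Ago12_KO library, from 5 to 28 counts of miR-758-3p in each. These ratios were not tested between groups.

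In Drosha_KO, 22 of the 28 tested members were lower than in WT by edgeR, against 31.6% of all entries, and 0 were higher, against 26.2%. At an unadjusted p under 0.05 edgeR also found 0 higher, and DESeq2 found 0 with either scaling. All counts came from replicate 2, where 15 of the 44 members were seen. Without replicate 1, with the lone library assumed to vary like the other groups, 17 were lower, against 23.5% of all entries, and 0 higher, also against 23.5%. Of the 28, 15 had no count in the group, and the median log2 fold change was -2.51 with these at their bounds, against -0.012 over all entries. Both medians include replicate 1.

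miR-300-3p led Drosha_KO replicate 2 with 148 counts, 43.4% of its member counts and 3672 CPM, and had 0 in replicate 1. Without replicate 1 its log2 fold change against WT was -0.49 (edgeR adjusted p = 0.241), and with both libraries it was -1.49 ± 1.04 (SE; edgeR adjusted p = 0.235), while without replicate 2 it was called lower (8.74e-08). miR-411-5p had 92 counts, 27.0% of the member counts and 2283 CPM. Its log2 fold change was -3.69 ± 1.16 (SE; edgeR adjusted p = 0.0185) with both libraries and -2.69 (0.00207) with replicate 2 alone, and it was not called with only the groups compared in the fit (0.125).

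miR-381-3p had 14 counts (347 CPM) in replicate 2 and fell by 4.58 ± 0.75 on the log2 scale with both libraries (SE; edgeR adjusted p = 0.000305), or by 3.59 without replicate 1. miR-376b-3p, with 30 counts (744 CPM), lay within the WT range in replicate 2, and its log2 fold change without replicate 1 was -0.06 (edgeR adjusted p = 0.92). miR-495-3p, with 9 counts (223.3 CPM), also lay within the WT range there, with a log2 fold change of -0.01 (0.998) without replicate 1. miR-376b-5p, with 5 counts (124.1 CPM), lay above both WT libraries in replicate 2 and had 0 in replicate 1. Its fitted log2 fold change was 0.94 with both libraries, 1.92 without replicate 1 and -4.74 with no scaling, given without a test for the reason stated above.

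miR-758-3p had no count in either Drosha_KO library and was at least 83.8-fold lower than in WT (edgeR adjusted p = 2.01e-05). miR-666-5p and miR-667-3p were also at 0, which puts them at least 16.7-fold and 9.96-fold below WT (edgeR adjusted p = 0.00029 and 0.000975). miR-380-3p had 15 counts in replicate 2 (372 CPM) and a log2 fold change of -2.51 ± 0.69 (SE; edgeR adjusted p = 0.00923), and miR-543-3p had 5 counts (124.1 CPM) and one of -2.92 ± 0.72 (0.00497). Without replicate 1 the log2 fold changes were -1.52 for miR-380-3p and -1.93 for miR-543-3p. With only the groups compared in the fit miR-380-3p was not called (edgeR adjusted p = 0.0622). miR-411-3p, with 13 counts (322.5 CPM), had the smallest called change, -1.85 ± 0.70 (SE; edgeR adjusted p = 0.0416), and the call was lost under 11 of 19 alternatives, among them the fit without Drosha_KO replicate 1 (-0.86, edgeR adjusted p = 0.166).

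No tested member was called between Dgcr8_KO and Drosha_KO by edgeR. Of the 28, 0 were called lower in Dgcr8_KO, against 8.32% of all entries, and 0 higher, against 5.61%. At an unadjusted p under 0.05 edgeR found 1 lower and 4 higher, DESeq2 with column totals 1 lower and 3 higher, and DESeq2 with its own size factors 2 lower and 1 higher. After adjustment DESeq2 called 0 with either scaling. Without Drosha_KO replicate 2, 7 members were higher in Dgcr8_KO, and without Drosha_KO replicate 1, 1 was lower, miR-411-3p (edgeR adjusted p = 0.00272). The members were at 0.846% of the 40306 counts in 1 Drosha_KO library and at 0 in the other. What size of difference could be detected at this depth and spread was not tested. The lack of calls therefore does not show equal levels.

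In Dicer_KO, 24 of the 28 tested members were lower than in WT, against 42.6% of all entries, and 0 were higher, against 13.3%, by edgeR. At an unadjusted p under 0.05 edgeR found 0 higher, and so did DESeq2 with either scaling. The 2 libraries held 36 and 87 member counts from 23 members, and 7 members were seen in both. The median log2 fold change was -3.52 with undetected members at their bounds, against -0.81 over all entries. The number called lower was 13 without Dicer_KO replicate 1, and 12 with DESeq2's size factors, in edgeR or in DESeq2.

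miR-411-5p remained the leading member, with 16 and 48 counts (354 and 1281 CPM), 44.4 and 55.2% of the member counts against 42.3 and 41.6% in WT. It fell by 4.19 ± 1.201 on the log2 scale (SE; edgeR adjusted p = 0.0113), but was not called without Dicer_KO replicate 1 (0.132). miR-381-3p had 5 and 8 counts (111 and 213 CPM) and fell by 4.72 ± 0.76 (SE; edgeR adjusted p = 0.000302), called under all 19 alternatives. miR-300-3p had 3 and 6 counts (66.3 and 160.1 CPM) and fell by 5.55 ± 1.39 (SE; edgeR adjusted p = 0.00544), with calls lost without Dicer_KO replicate 1 (0.0871) or replicate 2 (0.0502). In each of these miRNAs both Dicer_KO libraries lay below both WT libraries, and replicate 2 was above replicate 1.

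miR-758-3p had 1 and 5 counts and fell by 5.42 ± 0.65 on the log2 scale (SE; edgeR adjusted p = 5.2e-05). miR-299a-3p, and miR-376c-3p and miR-329-5p, which passed the filter through WT libraries alone, had no count in Dicer_KO. They were at least 7.41-fold, 6.09-fold and 3.70-fold below WT. Of these 3, miR-329-5p was not called without Dicer_KO replicate 1 (edgeR adjusted p = 0.0849) or replicate 2 (0.0573). The members with the smallest called changes, miR-376a-3p, miR-666-3p and miR-495-3p, had 2, 3 and 2 counts. Their ratios of WT to Dicer_KO were 6.21 (counting interval 1.71 to 51.4), 7.09 (2.42 to 34.4) and 9.25 (2.55 to 76.5). These calls were lost without Dicer_KO replicate 1 (edgeR adjusted p = 0.148, 0.135 and 0.0609), those of miR-666-3p (0.0513) and miR-495-3p (0.146) without Dicer_KO replicate 2, those of miR-376a-3p (0.0541) and miR-666-3p (0.0526) without WT replicate 1, and those of miR-376a-3p and miR-495-3p (both 0.0535) without WT replicate 2.

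**Figure D4:**
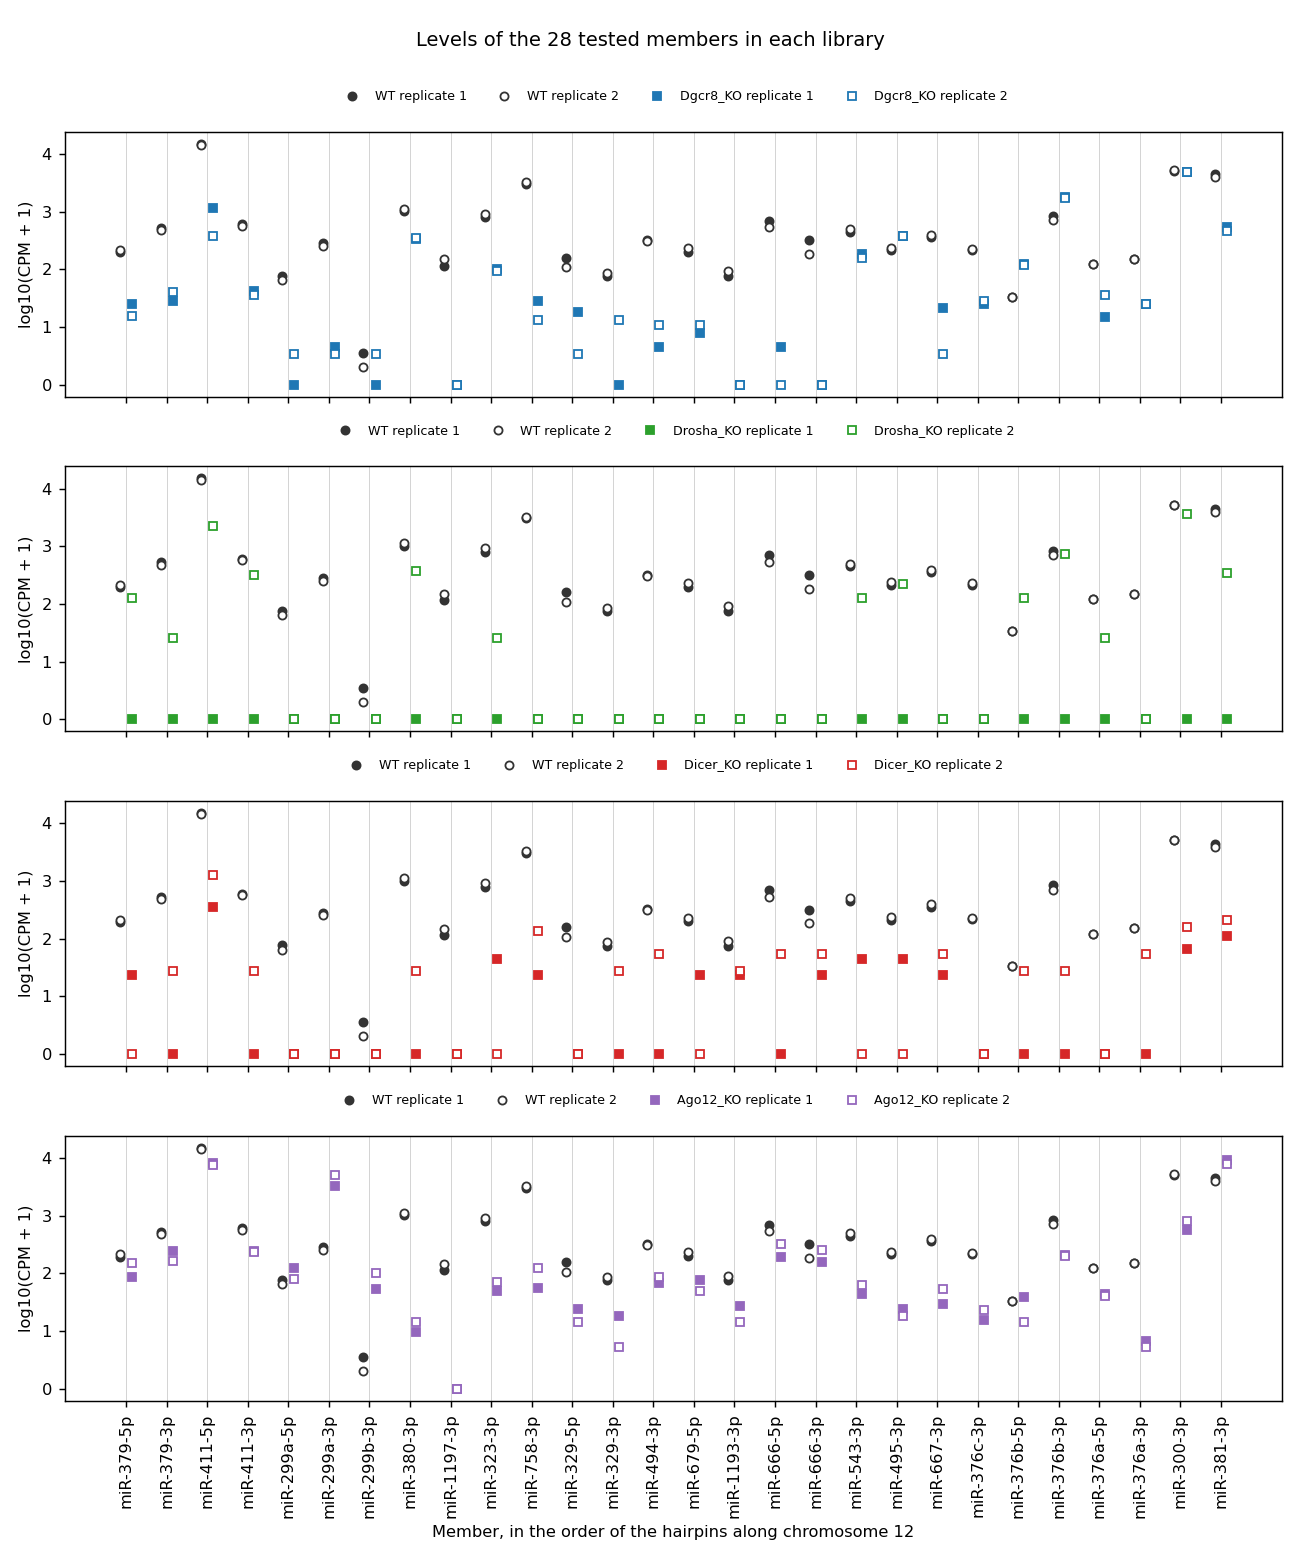
Level of the 28 tested members in WT (circles) and in each mutant (squares; filled, replicate 1; open, replicate 2), as log10(CPM + 1) on the y axes and in the order of the hairpins on the x axis. Points at 0 have no count; all members of Drosha_KO replicate 1 lie there, miR-300-3p stands level with WT in Dgcr8_KO, and miR-299a-3p stands above WT in Ago12_KO at 3286 and 5096 CPM.

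Of the 4 mutants, Ago12_KO had the highest summed share of the cluster, with a different make-up from WT. Of the 28 tested members, 19 were lower than in WT, against 25.8% of all entries, and 2 were higher, against 28.7%. Of these 2, miR-299b-3p passed the filter only through Ago12_KO libraries, which leaves miR-299a-3p. The median fitted log2 fold change was -1.97 over the members and -0.02 over all entries. miR-381-3p, miR-411-5p and miR-299a-3p together made up 89.4 and 87.0% of the member counts, against 55.5 and 53.7% in WT.

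miR-299a-3p rose from 282 and 253 CPM in WT to 3286 and 5096 CPM in Ago12_KO, from 1156 to 2317 counts over the libraries. Both mutant libraries lay far above both WT libraries, and the log2 fold change was 3.97 ± 0.36 (SE; edgeR adjusted p = 3.07e-05), called higher under all 19 alternatives. miR-299b-3p had 6 and 2 counts in WT and 18 and 23 counts in Ago12_KO, 2.54 and 1.03 CPM against 51.5 and 100.3 CPM, given without a test. As its sequence is contained in miR-299a-3p, it is not a separate observation. The opposite arm, miR-299a-5p, had 75.9 and 63.8 CPM in WT and 123 and 78.5 CPM in Ago12_KO and was not called (0.55 ± 0.43 SE on the log2 scale, edgeR adjusted p = 0.298), and the sign of its change was the opposite with TMM factors or no scaling.

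The 5p share of the miR-299a hairpin was 21.2 and 20.2% in WT and 3.61 and 1.52% in Ago12_KO. On log2 of 5p over 3p this was a fall from -1.94 to -5.35, a difference of -3.42 ± 0.46 (SE; limma adjusted p = 0.00284, n = 2 libraries a group). Arm balance changed in either direction at 79.5% of the 73 hairpins tested in this comparison, so a call in it is common. Among the 4 member hairpins tested, miR-666 was also called, with 68.8 and 74.4% 5p in WT and 55.3% in both Ago12_KO libraries (log2 difference -1.04 ± 0.22 SE, limma adjusted p = 0.0123). Neither hairpin was called without WT replicate 1 or without WT replicate 2, where 0 member hairpins passed.

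miR-379 and miR-411 were not called in arm balance (limma adjusted p = 0.399 and 0.11). For miR-379 the result turned on 1 library: the log2 difference was 1.19 without Ago12_KO replicate 1, which was called (limma adjusted p = 0.0182), and -0.20 without Ago12_KO replicate 2 (0.43). At a lower minimum of 10 counts per arm, miR-494 and miR-667 were tested and called as well. The 5p share of miR-494 was 5.12 and 5.24% in WT and 45.2 and 28.6% in Ago12_KO (log2 difference 3.41 ± 0.38 SE, limma adjusted p = 0.0015). That of miR-667 was 4.97 and 4.36% in WT and 52.4 and 50% in Ago12_KO (4.41 ± 0.21 SE, limma adjusted p = 0.000712), from 21 and 24 counts. The miR-494 and miR-667 shares rose and those of miR-299a and miR-666 fell, so these 4 hairpins did not share a direction.

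**Figure D5:**
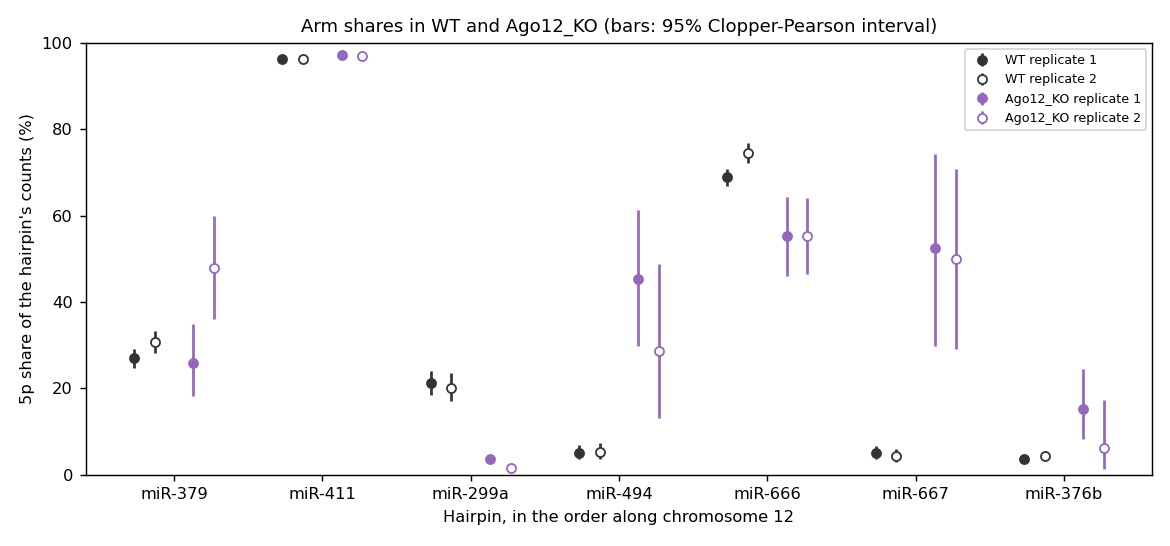
5p share of a hairpin's counts (y axis, percent; bars, exact 95% Clopper-Pearson intervals) for 7 member hairpins (x axis) in WT (dark) and Ago12_KO (purple; filled, replicate 1; open, replicate 2). miR-299a falls from 21.2 and 20.2% to 3.61 and 1.52%, while miR-494 and miR-667 lie at 28.6 to 52.4% in Ago12_KO against 4.36 to 5.24% in WT.

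miR-381-3p became the leading member in Ago12_KO, with 9419 and 7838 CPM against 4438 and 3936 CPM in WT. Both mutant libraries were above both WT libraries, with a log2 fold change of 1.04 ± 0.58 (SE; edgeR adjusted p = 0.146), which was -1.83 with no scaling. It passed the threshold without Drosha_KO replicate 1 (edgeR adjusted p = 0.00208) and without Drosha_KO replicate 2 (0.00222), and over the alternatives adjusted p ran from 0.00208 to 0.604. miR-411-5p had 8236 and 7515 CPM, below WT in both libraries and not called (-0.90 ± 1.03 SE on the log2 scale, edgeR adjusted p = 0.469, range 0.00535 to 0.623).

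miR-300-3p went the other way from its near-identical relative miR-381-3p, from 5135 and 5210 CPM in WT to 555 and 815 CPM. The groups lay far apart, with a log2 fold change of -2.92 ± 1.07 (SE; edgeR adjusted p = 0.0376). This call was lost under 10 of 19 alternatives, among them the fits without Ago12_KO replicate 1 (0.178) and replicate 2 (0.115), without WT replicate 1 (0.0911) and replicate 2 (0.0966), and without either library of Dgcr8_KO (0.0589 and 0.0588) or Dicer_KO (0.069 and 0.0693).

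miR-380-3p, miR-758-3p and miR-1197-3p had the largest fitted falls among the called members with a WT mean of at least 50 CPM. miR-380-3p fell from 1012 and 1124 CPM in WT to 8.59 and 13.1 CPM, 3 counts in each Ago12_KO library (-6.65 ± 0.79 SE on the log2 scale, edgeR adjusted p = 5.95e-05). miR-758-3p fell from 3044 and 3280 CPM to 54.4 and 122 CPM (-5.20 ± 0.53 SE, edgeR adjusted p = 3.59e-05). miR-1197-3p had no count in Ago12_KO and was at least 24.98-fold lower (edgeR adjusted p = 0.000439), but DESeq2 did not call it (0.108 and 0.147). It passed the filter through WT libraries alone, so its call is a description. miR-376a-3p, with 3 counts, had a ratio of WT to Ago12_KO of 29.0 (counting interval 9.87 to 141), so the order of these low members is not settled. miR-323-3p fell from 799.9 and 919 CPM to 48.7 and 69.7 CPM (-3.88 ± 0.41 SE, edgeR adjusted p = 2.96e-05).

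The smallest called falls were those of miR-379-3p, miR-666-5p and miR-376a-5p. miR-379-3p had 528 and 482 CPM in WT and 246 and 166 CPM in Ago12_KO (-1.28 ± 0.36 SE on the log2 scale, edgeR adjusted p = 0.0112), with the call lost without WT replicate 1 (0.0872) or replicate 2 (0.0619). miR-666-5p had 701 and 536 CPM in WT and 195 and 318 CPM in Ago12_KO (-1.28 ± 0.42 SE, edgeR adjusted p = 0.025), with the call lost without Ago12_KO replicate 1 (0.101), WT replicate 1 (0.173) or WT replicate 2 (0.0728). miR-376a-5p had 121 and 122 CPM in WT and 42.9 and 39.2 CPM in Ago12_KO (-1.55 ± 0.47 SE, edgeR adjusted p = 0.0174), with the call lost without WT replicate 1 (0.0765) or replicate 2 (0.0801). The groups did not overlap in any of these 3, which were named because they were called lower, so this adds no support.

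The lists beside the members in the imprinted region were counted in the same fits. Of all 481 tested entries, 41, 31.6, 42.6 and 25.8% were lower in Dgcr8_KO, Drosha_KO, Dicer_KO and Ago12_KO. In the same order, 32.4, 26.2, 13.3 and 28.7% were higher. Of the 9 tested Rtl1-antisense entries, 3 were lower and 2 higher in Dgcr8_KO, and 4, 9 and 4 were lower in Drosha_KO, Dicer_KO and Ago12_KO. All 9 tested entries of Meg3 and Rian were lower in Dgcr8_KO, Drosha_KO and Dicer_KO, and in Ago12_KO 6 were lower and 1 higher. Of the 16 tested entries of the second part of the Mirg cluster, 11, 9, 10 and 9 were lower and 1, 0, 0 and 1 higher in Dgcr8_KO, Drosha_KO, Dicer_KO and Ago12_KO. Set beside 23, 22, 24 and 19 lower of 28 members, the members' medians in Dgcr8_KO were -3.67 against 0.77, -4.32 and -1.93 for the 3 lists, and in Ago12_KO -1.97 against -1.72, -2.15 and -1.51. These medians use fitted values. With entries without a count at their bounds, the median of the second part of the Mirg cluster in Dgcr8_KO was -1.72. No test of these differences between lists was made.

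Neural markers were lower in every mutant library than in WT, as the members were. Fibroblast or feeder markers (such as miR-21a and miR-143) took 2.70 to 3.10% of WT, 1.34 to 1.40% of Dgcr8_KO, 1.34 to 1.58% of Drosha_KO, 1.77 to 3.08% of Dicer_KO and 2.997 to 3.348% of Ago12_KO libraries, below the members' share in WT and above it in every mutant library. Of these 12 entries, 3 had no count in WT or Ago12_KO, 4 in Dgcr8_KO or Dicer_KO and 6 in Drosha_KO. Neural markers took 0.290 to 0.320% of WT and 0.0267 to 0.163% of the mutants, and blood markers 0.136 to 0.177% of WT, 0.0454 to 0.0619% of Dicer_KO and 0.355 to 1.14% of the others, so they were higher than in WT in Dgcr8_KO, Drosha_KO and Ago12_KO. Of the 7 neural entries 1 or 2 had no count in a group, and of the 7 blood entries 1 to 3. Of the defining entries, both arms of miR-214 (fibroblasts) and miR-223-5p (myeloid cells) were at 0 in all 5 groups. miR-223-3p had a count in Dgcr8_KO only, and miR-451a, of red blood cells, had counts in WT and Dgcr8_KO and 0 in the other groups. The part of other cells in the members' values was not tested.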

How the data were processed

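The values are raw counts per mature miRNA entry, deposited by the authors in a single table for 10 small RNA libraries, made per the labels from 1 ug of total RNA with a TruSeq small RNA kit. Per the submitters' processing notes, Bowtie and mm10 were used. Not given in the sources used here are tool versions, how reads were counted, which miRBase release named the entries, and how multi-mapping reads were treated. Totals of sequenced reads were not used here. Entries enough for a test were chosen with edgeR's filterByExpr (minimum count 10, minimum total 15, which came to 38.5 CPM in at least 2 libraries). All 5 groups were fitted together with edgeR 4.0.16 (R 4.3.3) by its quasi-likelihood test with library sizes set to column totals and 5 residual degrees of freedom. Arm balance was tested with limma 3.58.1 on the log2 ratio of 5p to 3p counts, each plus 0.5, where both arms reached a mean count of 20 in each group. Intervals are exact binomial (scipy 1.17.1) and cover counting error only. The scripts were tested on simulated data. Positions come from GENCODE M21 and sequences from RefSeq.

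The members and lists were chosen with earlier results of these data known. Described in full were the 6 members highest in WT, in each comparison with WT up to 3 called members with the largest and up to 3 with the smallest fold change among those with a WT mean of at least 50 CPM, and members called higher; others are named where a count was 5 or fewer or a near-identical pair was compared. Alternatives were TMM and DESeq2 factors, no scaling, other filters, only the compared groups, a replicate block, DESeq2 1.42.0, and fits that omit a library, in which the remaining library of that group borrows its spread from the other groups. Replicate numbers are shared between groups but the labels do not say that they pair samples.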

Additional observations from a re-analysis of the deposited data

How the results depend on the processing

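Counts of members called lower stayed within 1.5 times the reported count under all alternatives run in Dgcr8_KO, Drosha_KO and Ago12_KO. In Dicer_KO the count was 12, not 24, with DESeq2 size factors in edgeR and 12 with DESeq2's own. Leaving out single libraries gave 20 to 23 lower and 0 to 3 higher in Dgcr8_KO, 17 to 23 lower and 0 higher in Drosha_KO, 13 to 24 lower and 0 higher in Dicer_KO, and 14 to 20 lower and 2 to 3 higher in Ago12_KO. In Dgcr8_KO the count higher was 0 with no scaling, 2 with no filter and 3 with only the compared groups, and in Ago12_KO it was 4 with no filter. The reported counts higher include miR-376b-5p in Dgcr8_KO and miR-299b-3p in Ago12_KO, which passed the filter only through mutant libraries. The counts lower include members, named above, that passed it through WT libraries alone. Between Dgcr8_KO and Drosha_KO, 1 was lower and 3 higher with no filter, 1 higher with TMM factors and 17 with no scaling; leaving out libraries gave 0 to 1 lower and 0 to 7 higher. Among the members named by the rule, log2 fold changes of the opposite sign were, with no scaling, -1.83 for miR-381-3p in Ago12_KO, -0.74 and -4.74 for miR-376b-5p in Dgcr8_KO and Drosha_KO, and -1.87 for miR-495-3p in Dgcr8_KO. Low or uncalled values also changed sign: miR-299b-3p with DESeq2 (1.34 and 1.48 in Drosha_KO, 1.30 and 2.70 in Dicer_KO). Leaving out single libraries gave -3.28 to 0.38 for miR-299b-3p in Dgcr8_KO, -0.67 to 0.16 for miR-666-3p in Ago12_KO, and -7.37 to 1.92 and -1.30 to 0.19 for miR-376b-5p in Drosha_KO and Ago12_KO. Without scaling the median of all entries was -3.02, -6.40, -7.52 and -2.88 against WT (Dgcr8_KO, Drosha_KO, Dicer_KO, Ago12_KO in turn), compared with -0.41, -0.87, -2.78 and -0.02 by column totals, -0.71, -1.47, -3.06 and -0.66 with TMM and -0.44, -0.75, -1.67 and -0.24 with DESeq2 factors. Without the miR-290 to miR-295 cluster in the total the summed share was 4.34% in WT, 1.10% in Dgcr8_KO and 2.67% in Ago12_KO, and without the fragment-like names it was 0.296% in Dicer_KO and 2.39% in Ago12_KO; single libraries gave 3.46 to 3.56% in WT, 0.881 to 0.964% for Dgcr8_KO, 0 to 0.846% for Drosha_KO, 0.0796 to 0.232% for Dicer_KO and 2.34 to 2.35% for Ago12_KO. Calls in arm balance numbered 0 to 1 in Dgcr8_KO and 0 to 3 in Ago12_KO without a library, and 4 in Ago12_KO with a minimum of 10 counts per arm. With the replicate number as a block the counts were 23 lower and 1 higher (Dgcr8_KO) and 22 and 0 (Drosha_KO). They were 24 and 0 (Dicer_KO), 19 and 2 (Ago12_KO) and 0 and 0 between Dgcr8_KO and Drosha_KO, all as without the block. Over 10 pairs of groups the same-numbered libraries' deviations correlated at -0.0454 to 0.121, and 1 pair was over 0.1. At the depth of Drosha_KO and Dicer_KO, low correlations cannot show whether same-numbered libraries shared a culture or batch. Of 1672 recomputed values for the 22 members named by the rule, 1542 kept their direction and side of the threshold. Depth limits Drosha_KO and Dicer_KO most, where 3 counts are 66.3 to 80.1 CPM. The cause of these differences was not tested.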
